A study of Arabidopsis thaliana with 12 samples.

Results

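The features described here are 20 of 3439 array probes that were listed at exactly 0 in all 6 samples of 4-week-old plants and above 0 in at least 3 of the 6 samples of 2-week-old plants. They were chosen by these deposited intensities at both ages, so the difference between the ages is part of their definition and was not tested. They make up 0.582% of the probes. Of the 20, 5 carry 1 gene in the array's annotation, namely SBPASE (AT3G55800), AT2G25830, AT4G12270, AT4G19160 and AT1G18440. Another 4 carry several genes and 11 are not listed there, so these 15 are given by probe number.

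Total RNA of wild-type Arabidopsis thaliana, ecotype Columbia 0, was measured in 6 samples of plants 2 weeks old and 6 samples of plants 4 weeks old. The labels name no organ and no growth condition, and do not say whether samples of an age are separate plants or repeated measurements. Each deposited intensity is a linear value between 0 and 100, where 100 is the maximum of its array. Between 12.2% and 13.7% of all probes stood at 0 in a 4-week sample, and between 16.2% and 20.2% in a 2-week sample. Over all probes the lowest and highest array medians were 0.390 and 0.445 at 4 weeks, and 0.0946 and 0.116 at 2 weeks. An exact 0 can be a signal at or under local background or a spot that gave no reading, and the sources used here do not say which. The probes are therefore called listed at 0 and not silent.

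A spotted or synthesised probe reports the RNA bound to it less the background around it. Probes with little signal can fall on either side of that background from array to array. In bulk RNA, fewer cells of a type and less RNA per cell cannot be told apart. SBPASE, the one named member with a functional name in the annotation, encodes sedoheptulose-bisphosphatase of the chloroplast. The enzyme removes a phosphate in the part of the Calvin cycle that regenerates the acceptor of carbon dioxide, and it is switched on in the light. The other 4 genes have no functional name in the annotation used here, which holds symbols and synonyms but no product descriptions.

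Of the 275 probes listed at 0 in all 6 samples at 4 weeks, 124 were at 0 in all samples of 2 weeks as well. A further 94 were above 0 in 1 sample of 2 weeks and 37 in 2 samples. The 20 members follow with 13 probes above 0 in exactly 3 samples, 4 in 4, 1 in 5 and 2 in all 6. Members were thus 7.27% of the probes at 0 throughout 4 weeks, and most of them lay at the edge of the rule.

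The opposite pattern, 0 in all 6 samples at 2 weeks and above 0 in at least 3 at 4 weeks, was found for 75 probes, which is 2.18% of the array. They were 31.8% of the 236 probes at 0 throughout 2 weeks, and 57 of them were above 0 in all 6 samples at 4 weeks. Among the 20 members, 2 were above 0 in all 6 samples of their age. No test was made of this difference between the sets, since the values that would be tested chose both of them.

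**Figure D1:**
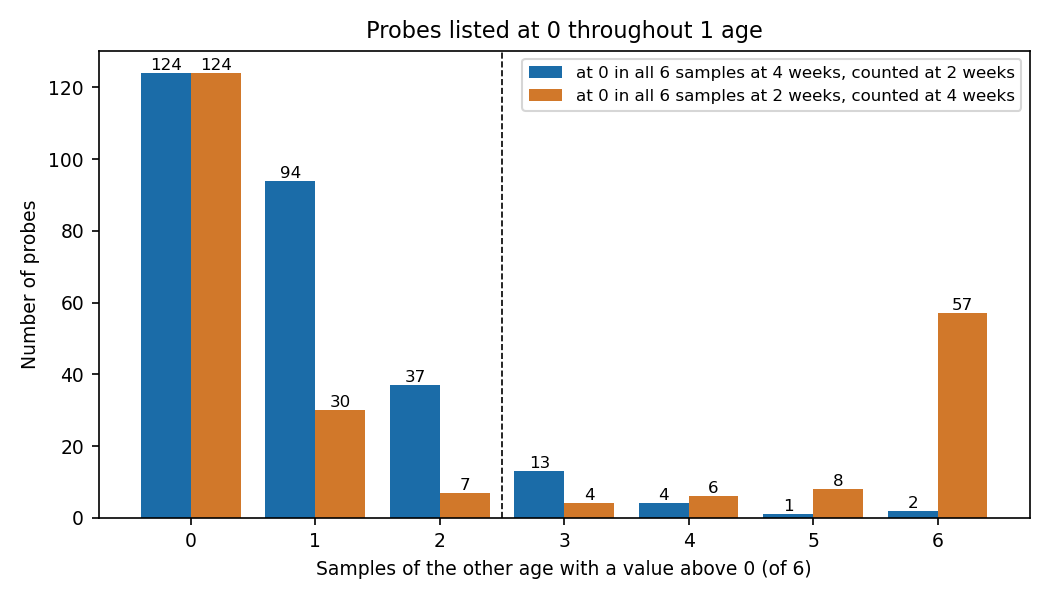
Number of probes listed at 0 in all 6 samples of 1 age (bars: blue for 4 weeks, orange for 2 weeks) by how many of the 6 samples of the other age were above 0. Right of the dashed line, the rule's minimum of 3 samples, the blue bars fall from 13 to 2, and the orange bars rise from 4 to 57.

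The label "detected at 2 weeks" holds for most members only in the sense of a value above 0. Of 120 member values at 2 weeks, 72 were above 0, and their median position was percentile 7.74 of the positive values on the same array. For the opposite set this median position was percentile 23.7 of the positive values at 4 weeks. In 14 of the 20 members, including SBPASE, AT4G19160 and AT1G18440, no sample reached the 25th percentile of the positive values of its array. The highest value among these 14 was 0.0374, in sample 5 of probe 3658. Such positions also depend on how brightly each probe binds, so they describe the probes and not the relative abundance of transcripts.

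Requiring more than a value above 0 removed most members. With a value above the array's 5th percentile of positive values, which lay between 0.0123 and 0.0201 at 2 weeks, in at least 3 samples, 5 members were left. They were probes 1802, 3100 and 3655, AT2G25830 and AT4G12270. Above the 25th percentile 3 were left, probes 1802, 3100 and 3655, and above the median 2, probes 1802 and 3100. With replicate 1 of both ages left out and 3 of the other 5 samples required, 12 probes met the rule, and without replicate 3 it was 13. These limits were set after the values were seen, except for leaving out a replicate.

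**Figure D2:**
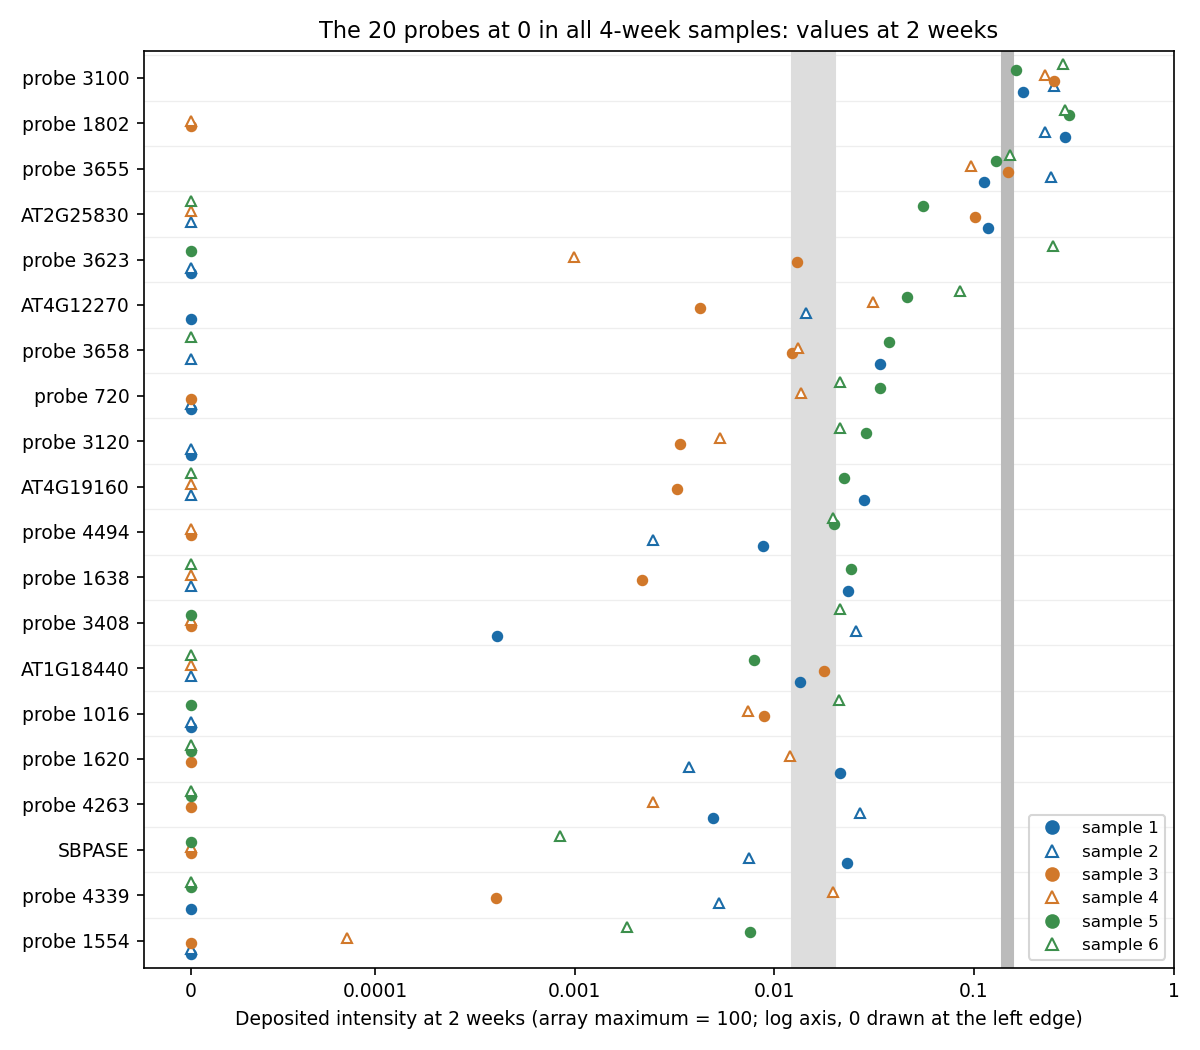
Deposited intensity at 2 weeks of each of the 20 probes (rows, sorted by mean) in samples 1 to 6, on a log axis with 0 drawn at the left edge. The colours join adjacent sample numbers, with odd numbers filled and even numbers open. The light band spans the 5th percentile of positive values over the 6 arrays and the dark band their median. Probes 3100 and 3655 are the 2 rows with no value at 0, and AT2G25830, AT4G19160, AT1G18440 and probe 1638 have all their open symbols at 0.

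The clearest members have no gene in the annotation. Probe 3100 stood at 0.176, 0.252, 0.251, 0.227, 0.162 and 0.278 in samples 1 to 6 of 2 weeks, with a mean of 0.224 ± 0.0460 (SD, n = 6). Its 6 values at 2 weeks lay between percentiles 53.0 and 67.6 of the positive values of their arrays, and its 6 values at 4 weeks were 0. Probe 3655 stood at 0.112, 0.244, 0.149, 0.0962, 0.128 and 0.151, with a mean of 0.147 ± 0.0521 (SD, n = 6). Sample 2 was the high one, and all 6 lay above the 4-week values, which were 0. Probes 3100 and 3655 were the 2 members whose ages did not overlap. Over all probes, 7.76% were lower and 56.5% higher at 4 weeks without overlap. These shares are of deposited intensities, whose array medians are higher at 4 weeks. Nothing can be read from the members' count because the rule used the same values.

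Probe 1802 was above 0 in 4 samples of 2 weeks, with 0.285 in sample 1, 0.227 in sample 2, 0.298 in sample 5 and 0.285 in sample 6. In samples 3 and 4 it was listed at 0. The 4 positive values lay between percentiles 64.4 and 71.2 of the positive values of their arrays, so this probe was either well within the measured range or at 0, with nothing between. Samples 3 and 4 carry adjacent numbers. Their deviations from the age mean correlated across genes with r = 0.31 at 2 weeks. For samples 1 and 2 of that age r was 0.067, and for samples 5 and 6 it was 0.010. At 4 weeks r was 0.49 for samples 1 and 2, 0.41 for samples 3 and 4 and 0.50 for samples 5 and 6. Taking off the mean of the same 6 samples pulls r below 0 for unrelated samples, so 0 is not the baseline here. Whether the correlation of samples 3 and 4 at 2 weeks has a part in these zeros was not tested. Probe 3623 also had 1 bright value, 0.247 in sample 6, but stood at 0.0130 and 0.000996 in samples 3 and 4 and at 0 in the other 3.

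SBPASE was among the members with values close to 0. Its intensity was 0.0232 in sample 1, 0.00748 in sample 2 and 0.000841 in sample 6, and it was listed at 0 in samples 3, 4 and 5. All 6 samples of 4 weeks were at 0, so the ages overlapped at 0 in 3 samples of 2 weeks. The highest of its values lay at percentile 8.12 of the positive values of its array. Since no value at 4 weeks was above 0, no fold is given for SBPASE or any other member.

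A list of 20 Calvin cycle loci, put together after the data were seen, had 1 other gene with a probe of its own here, PRK. PRK encodes phosphoribulokinase, which acts in the same regenerating part of the cycle after SBPASE and makes the acceptor itself. PRK had values of 4.66, 4.55, 3.18, 3.70, 4.70 and 4.59 in samples 1 to 6 of 2 weeks. At 4 weeks it had 1.04, 1.06, 0.786, 0.909, 1.03 and 1.09. The ages did not overlap, and PRK was well above 0 in all 12 samples. In limma, fitted over all tested probes, PRK fell by 2.54 on the log2 scale of quantile normalized intensity (SE 0.10, adjusted p = 7.23e-10, 4 weeks minus 2 weeks). With adjacent sample numbers averaged, which leaves 3 values per age, its limma adjusted p was 0.000129. At the same threshold, an adjusted p below 0.05, 31.1% of 2961 tested probes and genes were lower and 33.6% higher at 4 weeks.

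By the words in its full name, which holds "phosphatase", SBPASE fell into the class of signalling genes, and no other named member had a class. The class had 5 other genes, of which 3 were lower at 4 weeks and 1 higher in limma. It is a mixed class by its words, since PRK and PPDK, a pyruvate orthophosphate dikinase, are enzymes of metabolism. Beside PRK, the calmodulin-like gene CML41 fell by 1.40 (SE 0.11, limma adjusted p = 2.29e-07), but stood at 0.0796 in the deposited values without normalization (limma adjusted p = 0.529). PPDK fell by 1.02 (SE 0.22, limma adjusted p = 0.00133), but stood at 0.62 without normalization (limma adjusted p = 0.0521). CML30, also calmodulin-like, was the one that rose, by 0.27 (SE 0.11, limma adjusted p = 0.0473), but this call held in some alternatives only. CML30 passed with the floor at the 5th percentile, without the filter and without replicate 4 (limma adjusted p = 0.0491, 0.0216 and 0.0376). It also passed with the trend and robust options of eBayes (limma adjusted p = 0.0319). Its limma adjusted p was 0.0950 with replicate number as a block, 0.252 with adjacent numbers averaged, and 0.0517 to 0.167 without replicate 1, 2, 3, 5 or 6. Under median centring CML30 stood at 0.00052 (limma adjusted p = 0.997), and without normalization at 1.70 (limma adjusted p = 8.96e-08). GLR2.7, a glutamate receptor gene, did not pass, at -0.63 (SE 0.87, limma adjusted p = 0.545), and passed with the block (limma adjusted p = 0.00975). The median over the 5 was -1.02, beside 0.10 over all that were tested, but without normalization it turned to 0.62, beside 1.82.

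**Figure D3:**
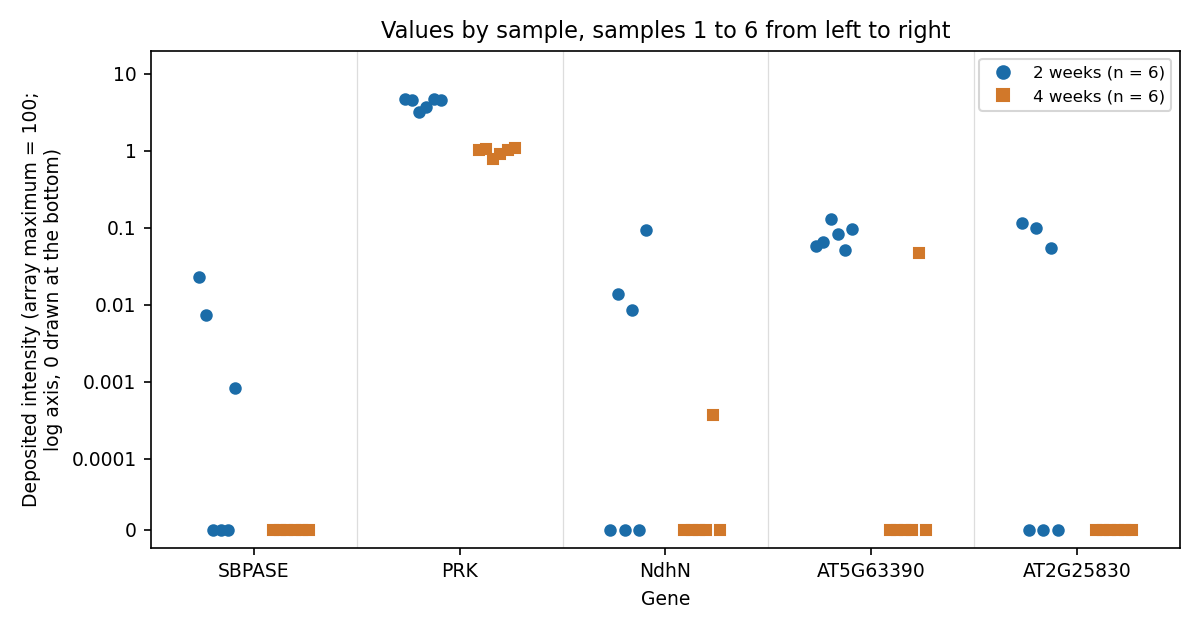
Deposited intensity by sample for 5 genes, 2 of them members (SBPASE and AT2G25830), with 6 samples of 2 weeks (circles) and 6 of 4 weeks (squares) on a log axis and 0 drawn at the bottom. Values are to be compared within a gene: PRK is above 0 in all 12 samples, SBPASE and AT2G25830 are above 0 in 3 samples of 2 weeks, and NdhN and AT5G63390 have 1 value above 0 at 4 weeks.

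The 3 named genes AT2G25830, AT4G19160 and AT1G18440 had the same samples above 0. AT2G25830 had 0.117 in sample 1, 0.101 in sample 3 and 0.0552 in sample 5. It was listed at 0 in samples 2, 4 and 6. AT4G19160 had 0.0280, 0.00327 and 0.0223 in samples 1, 3 and 5, and AT1G18440 had 0.0135, 0.0178 and 0.00794. The unnamed probe 1638 had this pattern too, at 0.0233, 0.00217 and 0.0242. For all 4 probes the odd-numbered samples of 2 weeks were above 0 and the even-numbered ones at 0.

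Members with this alternating pattern were 4 of the 13 that were above 0 in exactly 3 samples, and 0 had the even-numbered samples alone. Over the whole array, 95 probes were above 0 in exactly 3 samples of 2 weeks. Among them 7, or 7.37%, had the odd-numbered samples alone, the 4 members included, and 5, or 5.26%, the even-numbered ones. At 4 weeks 22 probes were above 0 in exactly 3 samples, 3 of them in the odd-numbered ones and 1 in the even-numbered ones. The labels do not say what a sample number stands for, and whether it has a part in these patterns was not tested.

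AT4G12270 was above 0 in 5 samples, more than any other named member. It had 0.0144, 0.00427, 0.0313, 0.0460 and 0.0852 in samples 2 to 6 of 2 weeks and was listed at 0 in sample 1. Its mean was 0.0302 ± 0.0320 (SD, n = 6), so the spread between samples was as large as the mean. The highest value, in sample 6, reached percentile 31.4 of the positive values of its array, and the lowest positive one, in sample 3, lay at percentile 1.02.

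The remaining 10 members, all without a single gene, had means at 2 weeks from 0.00158 for probe 1554 to 0.0161 for probe 3658. Probe 3658 was above 0 in samples 1, 3, 4 and 5, at 0.0338, 0.0122, 0.0132 and 0.0374. Probe 1554 had 7.22e-05, 0.00758 and 0.00182 in samples 4, 5 and 6, and its lowest value was among the smallest on its array. Between these lay probes 720, 1016, 1620, 3120, 3408, 4263, 4339 and 4494, whose highest values ran up to 0.0337, in probe 720. None of the 10 reached the 25th percentile of the positive values in any sample.

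Taken by sample, between 10 and 13 of the 20 members were above 0 on each 2-week array, with 10 in sample 2 and 13 in samples 1 and 5. The summed intensity of the 20 ran from 0.429 to 1.15 on these arrays, and it was 0 on all 6 at 4 weeks. The members showed 11 different combinations of samples above 0. Of samples 1 and 2, both were above 0 in 8 members, neither in 5 and 1 of them in 7. The counts for samples 3 and 4 were 8, 4 and 8, and for samples 5 and 6 they were 8, 3 and 9.

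Some genes missed the rule narrowly. A set of 21 probes was at 0 in 5 of the 6 samples at 4 weeks and above 0 in at least 3 at 2 weeks, and 4 of them carry 1 gene. AT5G63390 was above 0 in all 6 samples of 2 weeks, from 0.0514 to 0.129, and missed the rule through a value of 0.0479 in 4-week sample 5. NdhN, a subunit of the NADH dehydrogenase-like complex of the chloroplast, had 0.0140, 0.00868 and 0.0938 in 2-week samples 2, 4 and 6 and 0.000371 in 4-week sample 5. AT2G45990 had a higher value in 4-week sample 1, at 0.0318, than in any 2-week sample, where 0.0252 was the highest. AT3G47080 had 0.00283, 0.0343 and 0.0385 in 2-week samples 2, 3 and 6 and 0.00200 in 4-week sample 6.

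On the other side of the rule, 37 probes were at 0 throughout 4 weeks and above 0 in exactly 2 samples of 2 weeks, and 10 of them carry 1 gene. AT4G14330 had 0.00849 in sample 3 and 0.259 in sample 6. AT5G63290 had 0.00260 in sample 4 and 0.183 in sample 6. AT5G02050 had 0.00938 and 0.0648 in samples 1 and 2. AT1G68160, AT1G48570 and AT2G38570 did not exceed 0.0332. Values of the members and of these neighbours overlapped, and the rule separates them by 1 sample.

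Few marker genes of organs and cell types could be read on this array. Of 35 marker loci in 6 lists, 4 have a probe of their own here, 3 of 6 for green leaf and 1 of 6 for dividing cells and meristems. None of the 35 is among the members. The 3 leaf markers fell. PSAN, a photosystem I subunit, had deposited intensities from 10.7 to 17.7 at 2 weeks, and at 4 weeks from 2.30 to 3.19, with a log2 change of -2.15 (limma adjusted p = 2.22e-07). LHB1B2, of the light-harvesting antenna, ran from 32.5 to 56.3 and from 9.06 to 15.3, with a change of -1.43 (limma adjusted p = 5.60e-06). PRK is given above. LAS, the Lateral Suppressor gene needed to form axillary meristems, had values from 0.0772 to 0.133 at 2 weeks, and at 4 weeks from 1.95 to 2.51. It rose by 3.0 on the log2 scale (limma adjusted p = 2.80e-09). These 4 kept their direction and call without normalization, under median centring and with adjacent numbers averaged. With that averaging, the limma adjusted p was 0.000282 for PSAN, 0.00286 for LHB1B2 and 0.000116 for LAS. The 4 markers moved with the age, as the members do by choice, and their part in the members' pattern was not tested. In the main fit not all genes of photosynthesis fell. Of 6 tested genes matched by photosynthesis words, PRK and LHB1B2 included, 3 were lower at 4 weeks and 1 higher. The higher one, NdhS, stood at 0.60 (limma adjusted p = 0.00348), but at -0.92 under median centring (limma adjusted p = 2.83e-05). The lists for flower, root, seed and senescence reached 0 probes.

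By probe number in the deposited table, 15 of 47 blocks of 100 numbers held a member. Evenness over the blocks was not tested. The block of numbers from 3601 to 3700, singled out after its values were seen, held 4 of the 20. They were probes 3623, 3655 and 3658 and AT4G12270, and no other block of 100 held more than 2. In that block 15 of 77 probes, or 19.5%, were at 0 in all 6 samples at 4 weeks, against 8.0% over the array, and the members are part of that count. The sources used here do not tie these numbers to positions on the array, and whether position has a part in the zeros was not tested.

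**Figure D4:**
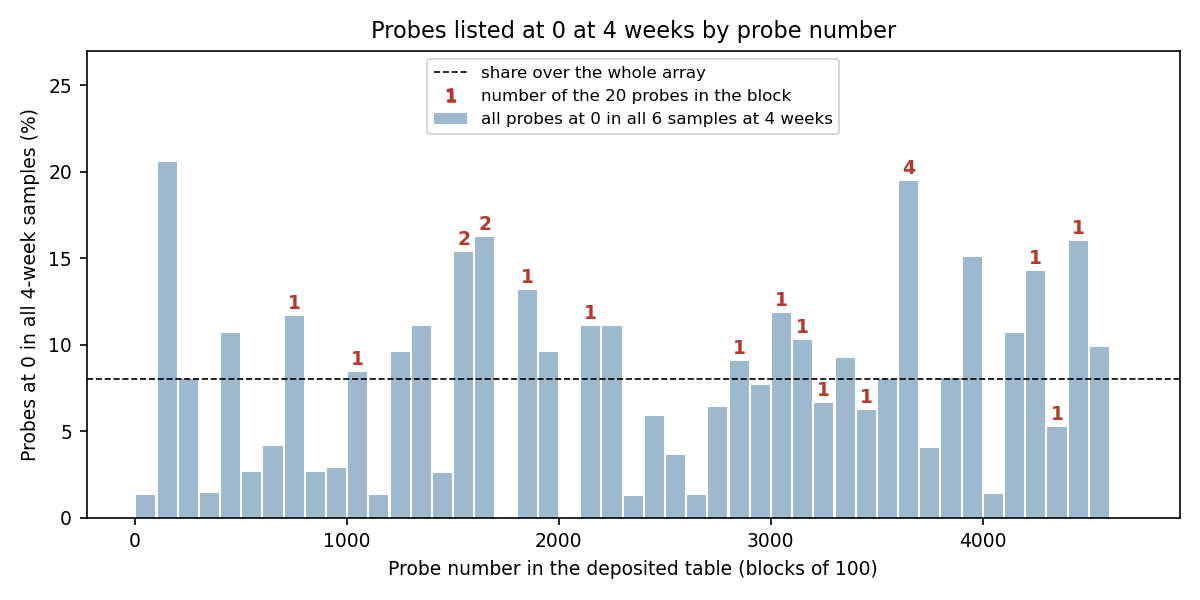
Share of probes at 0 in all 6 samples at 4 weeks (bars) in blocks of 100 probe numbers, with the share over the array, 8.0%, as a dashed line. The digits above bars count the 20 members in a block, and the block from 3601 to 3700 holds 4.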

How the data were processed

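The deposited table gives the authors' intensity for each probe and sample. Its values run from 0 to 100 on every array, and the sources used here do not give how the authors scaled or background-corrected them. It has 0 columns of other samples. The members and lists were chosen with earlier results of these data known. Of 3439 probes, 692 had 1 gene in the platform annotation, 870 several and 1877 none listed, and 690 of the 692 matched RefSeq genes of assembly TAIR10.1, used for names only. No sequences or coordinates were used. That table holds symbols and synonyms but no product descriptions, so gene classes were matched on those.

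Members and their values were taken from the deposited intensities without scaling. For other genes, the medians of the arrays' positive values spanned 1.90 in log2 units, so intensities were quantile normalized, floored at the 1st percentile of positive values (0.0152) and log2 transformed. Probes above the floor on at least 6 of 12 arrays were kept (2961 tested, 477 left out). The test was limma 3.58.1 (R 4.3.3) lmFit and eBayes, two-sided, with Benjamini-Hochberg adjustment, and it was tried on simulated data. Of the 20 members 2 passed the filter, probes 3100 and 3655, through their 2-week values. Their fits are not reported, but both are among the 2961 tested. The number of arrays limits the precision, and p-values measure only the spread between these samples.

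Deviations from the age means of same-numbered samples correlated across genes with r from 0.16 to 0.44, above 0.1 in each of the 6 pairs. For 12 of 12 samples, the best match at the other age was the sample of the same number. The main limma fit had no term for the sample number, so its p-values leave this pairing out. Sample number entered as a block in an alternative fit only. The labels give no meaning to the number. The 5 members with 1 gene are named. Just outside the rule, up to 6 named probes on each side were taken by 2-week median, with ties at 0 ordered by mean, and 3 genes of SBPASE's class by largest change. CML30, GLR2.7 and NdhS were named after their values were seen.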

Additional observations from a re-analysis of the deposited data

Results flagged for a closer look

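In 15 of 40 groups of 6 deposited intensities, the gap between 1 sample and the nearest of the rest passed the critical ratio of Dixon's test at 95%. Chance gives about 1 in 20 where values are continuous, but in 8 of the 15 at least 4 of the 6 values were 0, which pushes the ratio up, so the count cannot be held against that rate. Among the members at 2 weeks, probe 3623 had 0.247 in sample 6 against 0.0130 in the next sample, probe 3655 had 0.244 in sample 2 against 0.151, and SBPASE had 0.0232 in sample 1 against 0.00748. Probe 4263 had 0.0269 in sample 2 against 0.00491, probe 4339 had 0.0196 in sample 4 against 0.00529, and probe 1554 had 0.00758 in sample 5 against 0.00182. Of these members only probe 3655 had no value at 0, and each of the others had 3 of its 6 values at 0.

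Just outside the rule, sample 6 of 2 weeks was the high one for AT4G14330 (0.259 against 0.00849), AT5G63290 (0.183 against 0.00260), NdhN (0.0938 against 0.0140) and AT1G48570 (0.0280 against 0.00798), and sample 2 for AT5G02050 (0.0648 against 0.00938). At 4 weeks, 1 sample was above 0 and the other 5 at 0 for AT5G63390 (0.0479), AT2G45990 (0.0318), AT3G47080 (0.00200) and NdhN (0.000371). For the last 4 this follows from how they were picked.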

How the results depend on the processing

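The number of probes that met the rule depended on its limits. It was 151 with at least 1 of 6 samples of 2 weeks above 0, 57 with at least 2, and 2 with all 6. Allowing 1 value above 0 at 4 weeks gave 41, and averaging adjacent sample numbers, with at least 2 of the 3 means above 0 required in place of 3 of 6 samples, 49. With the 1st percentile of the positive values in place of 0 there were 21 probes, 13 of them among the 20. With detection set at the 5th, 25th or 50th percentile of positive values, limits added after the data were seen, it was 5, 3 and 2. Leaving out 1 replicate number gave from 12 to 19 probes, with the 12 and 13 falling without numbers 1 and 3. Of the 17, 18 and 19 probes found without numbers 4, 5 and 6, only 13, 14 and 14 were among the 20. The median over members of the 2-week mean was 0.00869 in deposited intensity and 0.0417 after quantile normalization. It was 0.0162 with arrays scaled to a common median and 0.0161 over positive values alone. An exact 0 stays 0 under any factor per array, so such scaling cannot change who the members are. In limma, 1914 probes and genes were called, 51.9% of them higher at 4 weeks, and 2572 without normalization, 87.3% of them higher, where the median change of all tested was 1.82 against 0.10. The replicate block gave 2028 calls, adjacent numbers averaged 1507, and leaving out a number 1783 to 1848. The calls of PRK, CML41 and PPDK held with the replicate block and in the other alternatives run, except that without normalization CML41 stood at 0.0796 and PPDK at 0.62 and neither passed. The cause was not tested. Whether members near 0 are limited by signal over background was not tested. Of the 20 members, 18 have at least 1 value at 0 at 2 weeks.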

Other observations

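At 2 weeks, 6 of the 77 probes with numbers from 3601 to 3700, or 7.79%, were listed at 0 in all 6 samples, against 6.86% over the array. In the block from 101 to 200, 20.6% of the probes were at 0 throughout 4 weeks and 11.8% throughout 2 weeks, and it held 0 members. Both blocks were singled out after their values were seen.

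The opposite set, at 0 throughout 2 weeks, had means at 4 weeks from 0.0156 to 1.47, with a median of 0.232 over its 75 probes, and the members had means at 2 weeks from 0.00158 to 0.224, with a median of 0.00869. The arrays of the 2 ages have different medians, so these levels are not on a common scale.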
